A study of Sus scrofa with 27 samples.

Results

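The CC chemokine genes were followed in pig lungs during ex vivo lung perfusion (EVLP), a procedure in which explanted lungs are ventilated and perfused on a circuit before transplantation. Members were the rows of the deposited table of gene counts whose gene name was CCL2, CCL4, CCL5, CCL8, CCL19, CCL20, CCL21, CCL22 or CCL26, and that reached 10 counts in at least 1 library. This gave 8 of the 31908 rows. CCL20 carried no gene name in the table and was named by its description only, so it is described beside the 8 and stays out of their counts. All 8 were retained by the filter on low counts in each comparison.

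Lungs of 9 Large-White pigs were taken from a non-heart-beating donor model, kept cold for a short period and then perfused with Steen solution that held methylprednisolone (a glucocorticoid), an antibiotic and heparin in every lung. In the Gold Standard group (GS, pigs 9, 17, 44, 55 and 77) part of the Steen solution was exchanged at regular intervals, and in the Pediatric Dialysis group (PD, pigs 2, 3, 4 and 5) a pediatric dialysis membrane was run on the circuit instead. Biopsies of each lung were taken after the cold period (0h), at 6h and at 12h of EVLP, which gave 15 GS and 12 PD libraries of bulk lung RNA. The 0h biopsy of a pig is therefore its own control, no lung was sampled without EVLP, and ages and sexes were not given in the sources used here. The isolated lung keeps its resident cells but receives none from the circulation. Values per pig are listed below in the pig order just given.

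CC chemokines are small secreted proteins with adjacent cysteines that attract leukocytes through G protein-coupled receptors (CCR). The inflammatory members are induced in macrophages, endothelium and epithelium by NF-kB signaling and draw monocytes, T cells or eosinophils into tissue. The homeostatic members CCL19 and CCL21 guide T cells and mature dendritic cells through CCR7 towards lymph vessels and lymphoid tissue, and lymphatic endothelium is a known source of CCL21 in the lung.

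GS libraries held 26335584 to 67522703 counts and PD libraries 14650700 to 21820935, so the groups did not overlap in depth. Depth therefore cannot be told apart from the group in any comparison of PD with GS. Sequencing batches were not given in the sources used here, so none could be set against the group. Markers of alveolar type 2 cells, the surfactant-producing cells of the lung, summed to at least 4960 CPM (counts scaled to the library size by the TMM method) in every library, and no marker that was found for any of the 12 cell type lists was at 0 in all libraries of a group. Already at 0h, 29.1% of 16477 genes differed between PD and GS at an edgeR adjusted p under 0.05 and at least 2-fold. The library of PD pig 2 at 12h had a median correlation of 0.847 with the other libraries of its group and time, and that of PD pig 4 at 0h 0.891, against 0.918 to 0.968 for the other 25. For the PD changes of the members, values without these 2 libraries are given beside those with them.

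The promoter windows of CCL4, called during perfusion in PD, and of CCL26, called in GS, are shown. Each window runs from 250 to 61 bases before the first base of the RefSeq transcript record (RefSeq annotation of Sscrofa11.1) and is written 5′ to 3′ on the gene's strand. Capitals mark a match to TATAAA on the sense strand in CCL4 and to the AP-1 letters TGANTCA in CCL26. The kappa B site and the AP-1 letters were searched on both strands.
CCL4, minus strand, chr12:39480572-39480761: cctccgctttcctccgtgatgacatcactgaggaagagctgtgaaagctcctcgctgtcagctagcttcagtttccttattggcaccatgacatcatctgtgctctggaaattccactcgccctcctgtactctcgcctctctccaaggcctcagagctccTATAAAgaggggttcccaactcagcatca
CCL26, plus strand, chr3:10381056-10381245: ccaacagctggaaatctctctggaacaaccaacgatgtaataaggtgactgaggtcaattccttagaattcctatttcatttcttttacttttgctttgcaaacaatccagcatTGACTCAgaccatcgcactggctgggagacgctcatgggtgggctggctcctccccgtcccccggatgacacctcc
TATAAA was found in the windows of CCL4 (89 to 84 bases before the start) and CCL8 (84 to 79), and in 4.04% of 19531 promoters. The kappa B site, the binding sequence of NF-kB, was found in CCL22 (195 to 186) and CCL20 (116 to 107), and in 10.9% of all promoters. The AP-1 letters were found in CCL26 (136 to 130) and in 4.05% of all promoters, and the windows of CCL2 and CCL19 held none of the 3. The windows of CCL4, CCL19 and CCL20 lie inside the deposited rows of these genes, so they may not be upstream of the true gene start. These matches describe the letters of the windows and were not tested as binding sites.

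CCL4 (ENSSSCG00000032343, chr12:39478885-39557358), also known as MIP-1beta, is made by activated macrophages and lymphocytes and attracts monocytes, natural killer and T cells. In PD, CCL4 rose 15.3-fold at 6h and 10.3-fold at 12h in the paired fit, while the fitted GS changes were at most 1.39-fold and not called. At 0h the PD lungs held 28.1, 20.8, 13.8 and 13.3 CPM, at 6h 908, 119, 219 and 238 CPM, and at 12h 235, 112, 165 and 291 CPM. All 4 PD pigs were higher at both later times than any PD pig at 0h, and pig 2 stood highest at 6h. The GS lungs held 14.2, 18.7, 20.7, 30.7 and 21.3 CPM at 0h, 19.2, 5.59, 35.8, 52.8 and 52.3 CPM at 6h, and 2.98, 23.8, 26.2, 152 and 34.1 CPM at 12h. The GS times overlapped, pig 17 was lowest at 6h and pig 9 at 12h, and pig 55 at 12h was the one GS lung within the range of the PD lungs at 6h and 12h.

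In the paired edgeR quasi-likelihood test with Benjamini-Hochberg adjustment over all genes, calls needed an adjusted p below 0.05 together with a change of 2-fold or more, and for 12h vs. 6h and the interaction of group and time the adjusted p alone. CCL4 was the 1 member called in PD at 6h vs. 0h, beside 0.142% of the 15545 genes tested (log2 fold change 3.94, SE 0.51, edgeR adjusted p = 0.0176). It was again the 1 member called in PD at 12h vs. 0h, beside 5.98% of genes (3.37, SE 0.50, edgeR adjusted p = 0.0149). Without the libraries of PD pig 2 at 12h and PD pig 4 at 0h the changes were 3.89 at 6h (edgeR adjusted p = 9.7e-05) and 3.64 at 12h (edgeR adjusted p = 0.000143). The direction held with each PD pig left out, at 3.47 to 4.42 on the log2 scale at 6h, but the edgeR adjusted p rose to 0.148, 0.105 and 0.342 without pigs 3, 4 and 5, and at 12h to 0.104 and 0.246 without pigs 3 and 5. In those fits edgeR called 0 genes in all, with 580 to 2091 genes at an unadjusted p under 0.05. In GS the log2 changes were 0.40 (SE 0.53) at 6h and 0.47 (SE 0.55) at 12h, and neither was called.

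The deposited row of CCL4 spans 78.474 kb, whereas its RefSeq record starts close to one end of it, and the row covers CCL3L1 on the opposite strand as well as a CCL3 row with 0 counts in all libraries. The kit was strand-specific, but the strand option of the counting was not given in the sources used here, so how far reads of CCL3L1 entered the CCL4 row cannot be told apart. CCL3L1 (chr12:39491885-39493370), a relative of MIP-1alpha that acts on CCR1, moved in the same direction. In PD it was at 6.06, 4.85, 1.78 and 4.57 CPM at 0h, 109, 21.2, 54.6 and 57.0 CPM at 6h and 125, 15.3, 13.9 and 47.9 CPM at 12h. All 4 PD lungs were above every PD lung of 0h at both times, with log2 fold changes of 3.69 (SE 0.56, edgeR adjusted p = 0.0332) and 3.07 (SE 0.55, edgeR adjusted p = 0.0179). As with CCL4, these calls were lost at 6h without pig 3, 4 or 5 and at 12h without pig 3 or 5. Because fewer cells of a type and less RNA per cell give the same change in bulk tissue, none of the levels here can be assigned to one or the other. Macrophage markers summed to 1487 to 1716 CPM in PD at 0h, 878 to 2021 CPM at 6h and 1162 to 2187 CPM at 12h, with 0 of 5 called at either time. Monocyte and neutrophil markers went from 744 to 1297 CPM over 359 to 1379 CPM to 409 to 1780 CPM, also with 0 of 5 called. Dendritic cell markers went from 52.8 to 110 CPM over 158 to 393 CPM to 194 to 424 CPM, with 1 of 4 called, CD83, at 12h (2.38, edgeR adjusted p = 0.0149). CD83 held by far the most counts of the 4, so these sums mainly follow it. The median log2 change of the 4 was 0.56 at 6h and 0.32 at 12h. The part of these cell types in the CCL4 rise was not tested.

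**Figure D1:**
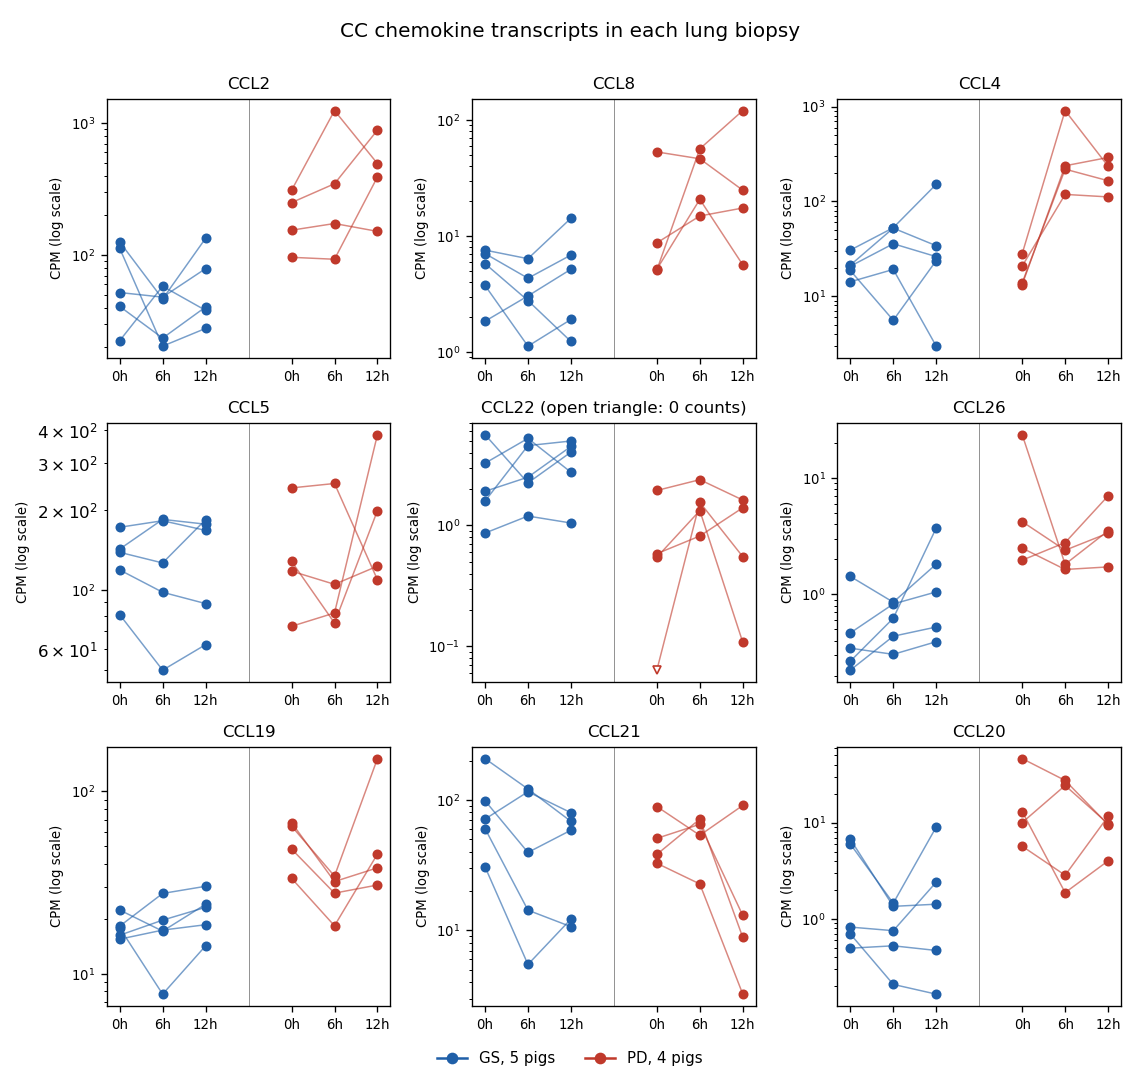
Level of each CC chemokine gene in CPM on a log axis in every biopsy, with 1 line per pig over 0h, 6h and 12h, GS in blue (5 pigs) and PD in red (4 pigs). CCL4 rises in all 4 PD lungs, from 13.3 to 28.1 CPM at 0h to 119 to 908 CPM at 6h, while CCL5 overlaps between groups at all times, and the open triangle marks the 1 library with 0 counts of CCL22 (PD pig 4 at 0h).

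CCL2 (ENSSSCG00000017723, chr12:40798109-40800028), or MCP-1, is the main chemoattractant of monocytes and acts through CCR2. In PD its level was 250, 154, 309 and 96.2 CPM at 0h, 347, 173, 1243 and 93.0 CPM at 6h and 885, 151, 493 and 391 CPM at 12h. Pig 4 was highest at 6h and pig 2 at 12h, pig 3 stayed near its 0h value, and the times overlapped. In GS it was 113, 40.9, 22.5, 52.1 and 126 CPM at 0h, 20.4, 23.5, 58.1, 48.0 and 46.5 CPM at 6h and 27.8, 40.4, 38.1, 79.0 and 134 CPM at 12h. The GS times overlapped too, pig 44 being the one that was higher at 6h than at 0h. The log2 fold changes were 0.75 (SE 0.53) and 1.25 (SE 0.53) in PD and -0.75 (SE 0.44) and -0.25 (SE 0.42) in GS at 6h and 12h, and none was called, the lowest edgeR adjusted p being 0.174 for PD at 12h. Without the 2 libraries that stood apart, the PD changes were 0.53 and 0.77 (edgeR adjusted p = 0.675 and 0.307). Without GS pig 44 the GS change at 6h was -1.29 and was called (edgeR adjusted p = 0.0412), beside 7.2% of genes in that fit.

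CCL8 (ENSSSCG00000040648, chr12:40740023-40742022), or MCP-2, also attracts monocytes and lies on the same chromosome as CCL2. In PD it was at 5.08, 5.16, 53.0 and 8.71 CPM at 0h, 56.3, 20.7, 46.2 and 14.9 CPM at 6h and 120, 5.63, 24.8 and 17.4 CPM at 12h. Pig 4 was already high at 0h in the library that stood apart, the other 3 pigs were higher at 6h than at 0h, and pig 3 was back near its 0h value at 12h. In GS the levels lay between 1.84 and 7.55 CPM at 0h, 1.12 and 6.36 CPM at 6h and 1.23 and 14.2 CPM at 12h, and overlapped between times. The PD changes of 1.14 (SE 0.75) at 6h and 0.99 (SE 0.81) at 12h on the log2 scale were not called. Without the 2 libraries that stood apart, the 6h change was 2.12 and was called (edgeR adjusted p = 0.0108), while that at 12h was 1.01 (edgeR adjusted p = 0.115). CCL2 and CCL8 had log2 changes of -0.75 and -0.72 in GS at 6h, and neither was called (edgeR adjusted p = 0.214 and 0.200).

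CCL5 (ENSSSCG00000017705, chr12:39648598-39659118), or RANTES, is made mainly by T and natural killer cells and attracts T cells, monocytes and eosinophils. Its GS levels were 119, 80.9, 172, 139 and 143 CPM at 0h, 98.2, 50.1, 182, 126 and 184 CPM at 6h and 89.0, 62.4, 168, 184 and 177 CPM at 12h. Its PD levels were 73.1, 118, 242 and 128 CPM at 0h, 82.1, 105, 251 and 75.2 CPM at 6h and 384, 123, 109 and 199 CPM at 12h. All 6 groups overlapped, and the highest value was that of PD pig 2 at 12h, a library that stood apart. The 4 log2 fold changes ranged from -0.19 (SE 0.52, PD at 6h) to 0.65 (SE 0.55, PD at 12h), and the standard error in GS was 0.15 at both times, the smallest among the members. Without the 2 libraries that stood apart, the PD changes were 0.04 at 6h and 0.15 at 12h.

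CCL22 (ENSSSCG00000002821, chr6:19296711-19302000), a dendritic cell and macrophage product that binds CCR4 on Th2 and regulatory T cells, was among the low members. It was at 5.65, 0.865, 1.59, 1.92 and 3.28 CPM in GS at 0h, and GS stayed within 1.20 to 5.26 CPM at 6h and 1.05 to 5.00 CPM at 12h. In PD it was at 0.546, 1.95, 0 and 0.584 CPM at 0h, 1.33, 2.39, 1.55 and 0.818 CPM at 6h and 0.108, 1.62, 0.552 and 1.40 CPM at 12h. Every PD pig was higher at 6h than at 0h, including pig 4, whose 0h library held 0 counts, but the groups overlapped and the log2 changes of 1.43 (SE 0.83) at 6h and 0.49 (SE 0.84) at 12h were not called. The fitted PD changes depend on the count added to that 0 and are not bounds. Without that library and that of pig 2 at 12h they were 0.82 (edgeR adjusted p = 0.497) and 0.37 (edgeR adjusted p = 0.666).

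CCL26 (ENSSSCG00000039874, chr3:10381296-10385796), or eotaxin-3, attracts eosinophils through CCR3. It rose 2.37-fold in GS at 12h and was not called in the other comparisons with 0h. GS levels were 0.266, 0.223, 0.466, 0.345 and 1.43 CPM at 0h, 0.623, 0.437, 0.827, 0.305 and 0.856 CPM at 6h and 3.72, 0.524, 1.05, 0.392 and 1.82 CPM at 12h. Each GS pig was higher at 12h than at 0h, pig 9 by far the most, and the times overlapped. CCL26 was 1 of the 2 members called in GS at 12h vs. 0h (log2 fold change 1.24, SE 0.47, edgeR adjusted p = 0.0493), beside 15.7% of the 18594 genes tested. Without pig 9 the change was 0.67 (edgeR adjusted p = 0.115), and the call was also lost without pig 17, 44 or 55. Without the replicate block it was 1.42 (edgeR adjusted p = 0.134). In PD the levels were 1.97, 4.21, 23.6 and 2.50 CPM at 0h, 2.78, 2.39, 1.81 and 1.64 CPM at 6h and 7.01, 3.36, 3.52 and 1.72 CPM at 12h. The highest of these was again the 0h library of pig 4. The PD change at 6h was -1.38 (SE 0.72) with it and -0.40 without the 2 libraries, that at 12h was -0.66 and -0.05, and none was called.

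The homeostatic CCL19 and CCL21 both lie on chromosome 10. CCL21 (ENSSSCG00000038162, chr10:31933733-32094583), the CCR7 ligand of lymphatic endothelium, fell 2.34-fold at 6h and 2.48-fold at 12h in GS. GS levels were 60.3, 30.7, 71.2, 207 and 98.5 CPM at 0h, 14.3, 5.47, 115, 121 and 39.5 CPM at 6h and 10.7, 12.2, 79.7, 68.4 and 58.5 CPM at 12h. Of the 5 GS pigs, 4 were lower at 6h and 4 at 12h, pig 44 was higher at both times, and the times overlapped. CCL21 was the 1 member called in GS at 6h vs. 0h, beside 11.1% of genes (log2 fold change -1.23, SE 0.37, edgeR adjusted p = 0.0274), and the second member called at 12h (-1.31, SE 0.37, edgeR adjusted p = 0.0140). Without pig 9 the changes were -0.92 (edgeR adjusted p = 0.102) and -0.94 (edgeR adjusted p = 0.0687), and the call was also lost without pig 17 or 77 at 6h and without pig 55 at 12h. Without the replicate block the changes were -0.69 (edgeR adjusted p = 0.628) and -1.07 (edgeR adjusted p = 0.352).

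In PD, CCL21 was at 88.9, 38.2, 32.6 and 50.7 CPM at 0h, 53.5, 71.2, 22.7 and 65.0 CPM at 6h and 90.6, 8.82, 3.24 and 13 CPM at 12h. At 12h pigs 3, 4 and 5 were below every PD lung of the earlier times, and pig 2, whose library stood apart, was the highest of the 12 PD libraries. The log2 fold change at 6h was 0.10 (SE 0.59) with all libraries and was not called. That at 12h was -1.68 (SE 0.64, edgeR adjusted p = 0.133) with all libraries and -2.32 (edgeR adjusted p = 0.000622) without the 2 libraries. The lymphatic endothelium list (PROX1, LYVE1, FLT4, RELN and MMRN1) summed to 182 to 291 CPM in GS at 0h, 127 to 421 CPM at 6h and 138 to 478 CPM at 12h, with 1 of 5 called, PROX1, at 12h (-1.18, edgeR adjusted p = 0.00765). In PD it summed to 145 to 326 CPM, 267 to 508 CPM and 73.7 to 456 CPM, with 0 of 5 called. LYVE1 held by far the most counts of the 5, so the sums mainly follow it. The median log2 change of the 5 at 6h and 12h was -0.50 and -0.61 in GS, and 0.68 and 0.05 in PD. The part of lymphatic endothelium in the fall of CCL21 was not tested. The CCL21 row spans 160.851 kb and overlaps another gene row on the same strand (chr10:31929310-32013264), so its counts may hold reads of that locus.

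CCL19 (ENSSSCG00000010966, chr10:32110064-32112739), the other CCR7 ligand, was at 22.4, 17.9, 18.2, 16.3 and 15.5 CPM in GS at 0h, 17.1, 7.73, 27.6, 19.7 and 17.4 CPM at 6h and 24.1, 14.2, 30.2, 23.2 and 18.6 CPM at 12h. In PD it was at 64.6, 48.4, 67.5 and 33.4 CPM at 0h, 34.3, 27.7, 32.1 and 18.3 CPM at 6h and 152, 30.7, 38.1 and 45.4 CPM at 12h. All 4 PD pigs were lower at 6h, at 0.475 to 0.573 of their 0h value, and the ranges overlapped only through pig 2 at 6h and pig 5 at 0h. The log2 change of -0.92 (SE 0.41) was not called (edgeR adjusted p = 0.517). At 12h the change was 0.12 with all libraries, and without the 2 libraries the changes were -0.77 at 6h and -0.17 at 12h (edgeR adjusted p = 0.203 and 0.752). CCL20 (ENSSSCG00000016254, chr15:129172242-129175941), which attracts CCR6-bearing dendritic cells and lymphocytes to mucosa, was at 9.996, 13, 46.2 and 5.68 CPM in PD at 0h, and 0.497 to 6.72 CPM in GS. Its 4 log2 fold changes lay between -1.34 (SE 0.53, GS at 6h, edgeR adjusted p = 0.0759) and -0.30 (SE 0.52, GS at 12h), and none was called by edgeR, while DESeq2 called that of GS at 6h (-1.30, DESeq2 adjusted p = 0.0282). Without the 2 libraries the PD changes of CCL20 were -0.46 and -0.32, against -0.75 at both times with them.

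**Figure D2:**
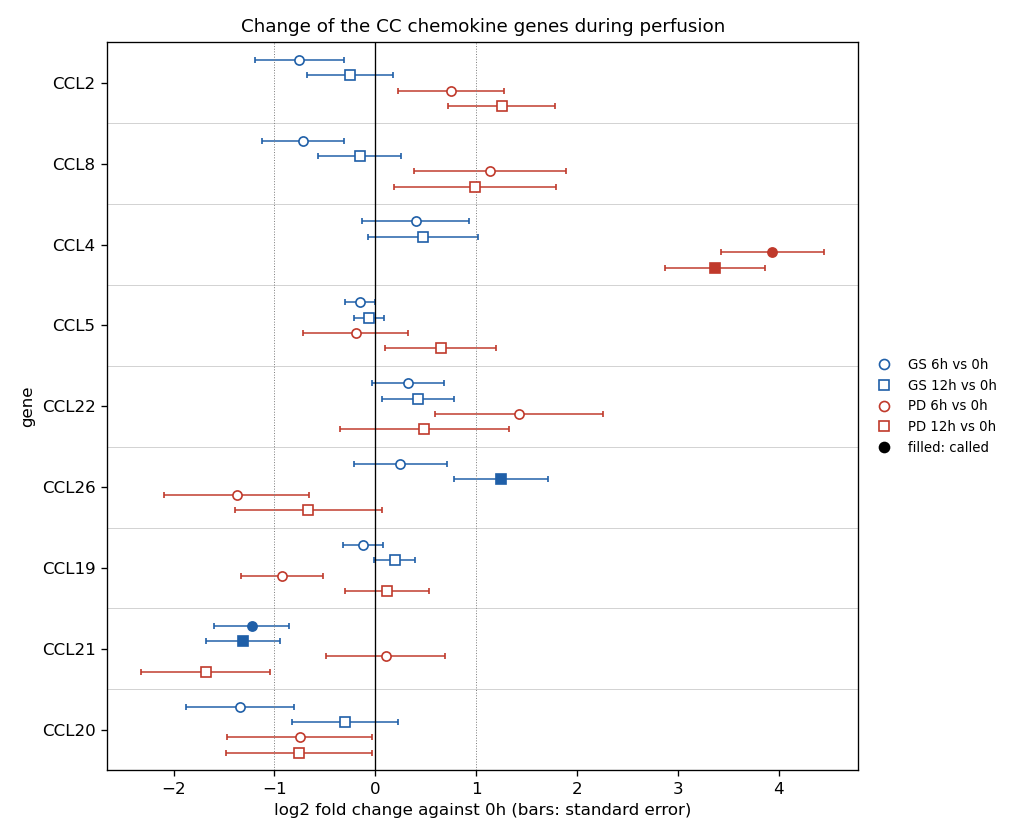
Log2 fold change against 0h of the 8 members and of CCL20 in the paired edgeR fits (circles 6h, squares 12h, GS blue, PD red, bars for the standard error, dotted lines at a fold of 2), with filled symbols for the calls. The CCL4 changes in PD, 3.94 and 3.37, lie apart from the other changes, and the further calls are CCL21 in GS at both times and CCL26 in GS at 12h.

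Over the 8 members, the median log2 change was -0.14 in GS at 6h (all genes -0.05), 0.06 in GS at 12h (all genes -0.08), 0.43 in PD at 6h (all genes -0.02) and 0.57 in PD at 12h (all genes -0.05). Of the 8, 3 and 4 had changes above 0 in GS and 5 and 6 in PD. The PD medians and counts include the 2 libraries that stood apart and were not computed without them. Between 6h and 12h, 0 of 8 members and 0% of all genes were called in either group by edgeR. At an unadjusted p under 0.05 the edgeR test held 1 member (CCL26) and 882 genes in GS, and 2 members (CCL19 and CCL21) and 1562 genes in PD. DESeq2 called 0 members in both, and 2 genes in GS and 224 in PD. CCL21 in PD was called in this comparison without the 2 libraries that stood apart (-2.57, edgeR adjusted p = 0.00134). With all 27 libraries in 1 fit, edgeR called 0% of genes in GS and 2.75% in PD in this comparison.

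Whether the changes differed between dialysis and standard perfusion was tested with the log2 ratio of each pig to its own 0h biopsy, using exact permutation of the pigs (two-sided, all 126 divisions of the 9 pigs into 4 and 5), which cannot give a p below 0.00794. At 6h, 2 of the 8 members had an unadjusted exact p under 0.05, beside 9.85% of 17884 genes, and 1 had groups that did not overlap, beside 3.12%. For CCL4 the PD ratios ran from 2.51 to 5.01 (mean 3.92, SD 1.04, n = 4) and the GS ratios from -1.74 to 1.30 (mean 0.31, SD 1.19, n = 5). The difference was 3.60 on the log2 scale without overlap (exact permutation p = 0.00794, the smallest possible, and 0.336 after adjustment over all genes). For CCL8 the PD ratios averaged 1.51 (SD 1.58) and the GS ratios -0.60 (SD 0.92), and they overlapped, with a difference of 2.11 (exact permutation p = 0.0317, 0.454 after adjustment over all genes). Without PD pig 4 the differences were 3.58 for CCL4 and 2.68 for CCL8, each with an exact permutation p of 0.0179, the smallest possible with the pigs left. The CCL8 difference lost its exact p under 0.05 on leaving out any of pigs 9, 17, 55, 77, 2 or 3.

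At 12h, 1 of the 8 had an unadjusted exact p under 0.05, beside 5.73% of genes, and the same 1 had groups without overlap, beside 2.09%. This was CCL4, with PD ratios of 2.42 to 4.45 (mean 3.38) and GS ratios of -2.25 to 2.31 (mean 0.28), a difference of 3.09 (exact permutation p = 0.0159, 0.660 after adjustment over all genes). Without PD pigs 2 and 4 the difference was 3.15 (exact permutation p = 0.0476, the smallest possible with the pigs left). Without pig 5 it was 2.74 (exact permutation p = 0.0714). In the edgeR test of the interaction of group and time, 0 of 8 members and 0% of genes were called at 6h or 12h, with 1046 and 1069 genes at an unadjusted p under 0.05. Leaving out PD pig 2 gave 0 members called, beside 1.37% and 0.824% of genes. With all pigs, CCL4 had interaction terms of 3.53 (SE 0.79, edgeR adjusted p = 0.783) and 2.88 (SE 0.79, edgeR adjusted p = 0.629). DESeq2 called 7 genes at 6h, among them CCL4 (3.50, DESeq2 adjusted p = 0.0133), and 15 genes but no member at 12h. The median interaction term over the 8 members was 1.17 at 6h (all genes 0.02) and 0.35 at 12h (all genes -0.01).

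**Figure D3:**
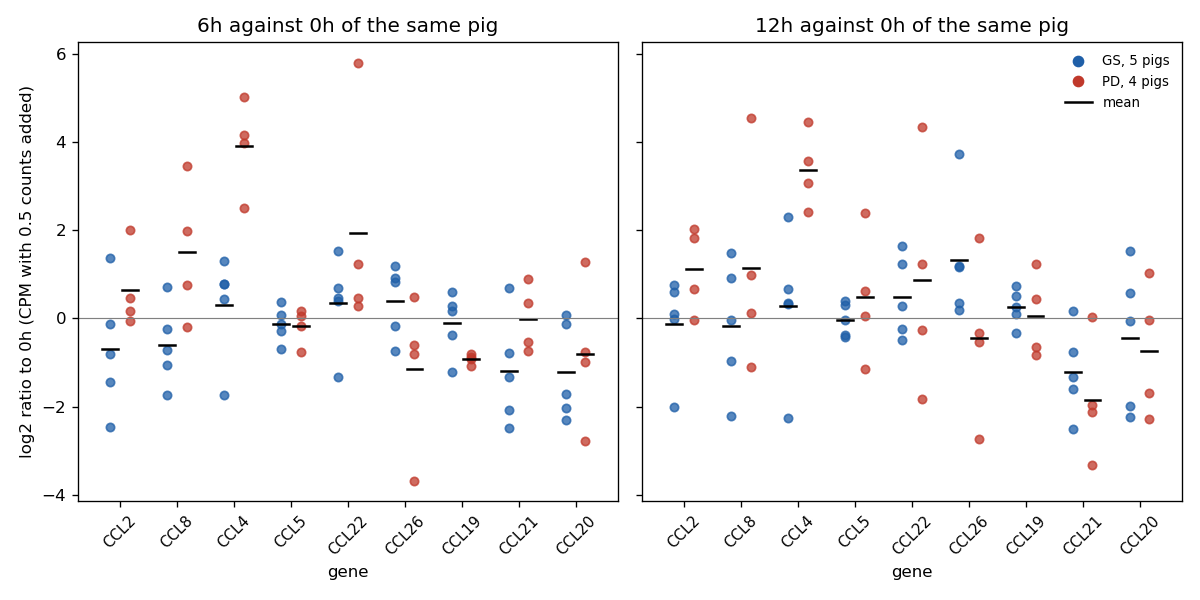
Log2 ratio of 6h (left) and 12h (right) to the 0h biopsy of the same pig, for GS (blue, 5 pigs) and PD (red, 4 pigs), with black lines for the means. The CCL4 ratios do not overlap between groups at either time, whereas those of the other genes do, and the highest PD points of CCL22 are ratios to a library with 0 counts.

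The levels themselves, compared between PD and GS at each time, carry the differences that were present at 0h. At 0h, edgeR called 4 of the 8 members higher in PD, beside 29.1% of genes called and 15.2% called higher. CCL26 was 15-fold higher (log2 3.90, SE 0.81, edgeR adjusted p = 0.00263), and 2.41 on the log2 scale without PD pig 4 (edgeR adjusted p = 0.00558). CCL19 was 3.05-fold higher (1.61, SE 0.24, edgeR adjusted p = 0.000284), with values of 33.4 to 67.5 CPM in PD against 15.5 to 22.4 CPM in GS. These 2 genes did not overlap between groups at 0h, as held for 32.4% of all genes. CCL2 was 2.95-fold higher (1.56, edgeR adjusted p = 0.0222) and CCL8 3.60-fold (1.85, edgeR adjusted p = 0.0468), but both overlapped between groups, and the exact permutation p of their levels was 0.0476 and 0.206. By that test 3 of the 8 (CCL2, CCL26 and CCL19) had an unadjusted p under 0.05 at 0h, beside 45.2% of genes. Without PD pig 4, CCL2 and CCL8 were at 1.28 (edgeR adjusted p = 0.0610) and 0.32 (edgeR adjusted p = 0.554). The call of CCL2 was lost in 4 of the 9 fits that left out a pig (17, 55, 2 or 4) and that of CCL8 in 6 (any GS pig, or PD pig 4). CCL20 was 6.58-fold higher (2.72, edgeR adjusted p = 0.0231), and not called without PD pig 4 (1.74, edgeR adjusted p = 0.109) or without GS pig 17 or 44. CCL4, CCL5, CCL22 and CCL21 were not called, with log2 differences of -0.11, 0.15, -1.74 and -0.78. CCL22 was called lower in PD by DESeq2 (-1.76, DESeq2 adjusted p = 0.0433) and by edgeR without PD pig 3 (-2.76, edgeR adjusted p = 0.0292), beside 30.7% and 28.3% of genes called.

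At 6h, 4 of the 8 members (CCL2, CCL8, CCL4 and CCL26) were higher in every PD lung than in any GS lung, with an exact permutation p of 0.00794 each, beside 19.9% of genes without overlap and 33% with an unadjusted exact p under 0.05. CCL20 did not overlap either. At 12h, 2 of the 8 did not overlap, beside 20.2% of genes. These were CCL2, at 151 to 885 CPM in PD against 27.8 to 134 CPM in GS (exact permutation p = 0.0159), and CCL19, at 30.7 to 152 CPM against 14.2 to 30.2 CPM (exact permutation p = 0.00794). Without PD pig 2, the PD levels at 12h were 151 to 493 CPM for CCL2 and 30.7 to 45.4 CPM for CCL19, still above every GS lung. At this time 5 of the 8 had an unadjusted exact p under 0.05, beside 31.8% of genes, CCL22 being the one that was lower in PD (0.108 to 1.62 CPM against 1.05 to 5.00 CPM).
At 0h the monocyte and neutrophil markers summed to 744 to 1297 CPM in PD and 230 to 565 CPM in GS, the B and plasma cell markers to 513 to 2178 CPM and 237 to 334 CPM, and the alveolar type 2 markers to 26022 to 77066 CPM and 6524 to 9243 CPM. Single markers of these lists went both ways, with 2 of 5 called higher and 1 lower for monocytes and neutrophils, 2 of 5 and 1 for B and plasma cells and 1 of 5 and 1 for alveolar type 2 cells. Of the dendritic cell markers 2 of 4, and of the lymphatic markers 2 of 5, were called lower in PD and 0 higher. Their part in the differences of the chemokines was not tested.

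The other genes of the chemokine system were 12 further CC ligand rows and 13 receptor rows. Of the ligands, 8 were tested in GS and 7 in PD. In GS, edgeR called 0 of 8 at either time, beside 11.1% and 15.7% of all genes. At an unadjusted p under 0.05 the edgeR test held 0 and 2 of the 8, beside 7653 and 9014 of the 18594 genes tested. In PD, 1 of 7 was called at 6h (CCL3L1) and 2 at 12h (CCL3L1, higher, and CCL28, lower), beside 0.142% and 5.98% of all genes. CCL28, an epithelial ligand of CCR10 and CCR3, was at 5.57, 4.95, 5.79 and 12.3 CPM in PD at 0h and at 1.83, 0.974, 1.45 and 4.59 CPM at 12h, lower in all 4 pigs (log2 fold change -1.88, SE 0.43, edgeR adjusted p = 0.0325). The call was lost without pig 3, 4 or 5. CCL17, the other ligand of CCR4, and the eosinophil attractant CCL24 were not called in any of the 4 comparisons with 0h. At 0h, 2 of the 7 ligands tested and 2 of the 13 receptors were called, beside 29.1% of all genes, so neither share exceeded that of the table. The ligands were higher in PD than in GS, CCL23 (1.82, edgeR adjusted p = 0.000472) and CCL24 (1.73, edgeR adjusted p = 0.00797). Of the receptors, ACKR1 was higher in PD (1.77, edgeR adjusted p = 0.00482) and CCR6 lower (-1.74, edgeR adjusted p = 0.0421), the latter not called in 6 of the 9 fits that left out a pig.

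Of the 13 receptors tested in GS, 1 rose and 2 fell at 6h, and 2 rose and 4 fell at 12h, beside 11.1% and 15.7% of all genes called. CCR4, the receptor of CCL22 on Th2 and regulatory T cells, fell in all 5 GS pigs, from 4.15 to 7.02 CPM at 0h to 0.882 to 1.54 CPM at 6h and 0.359 to 1.94 CPM at 12h, without overlap (log2 fold changes -2.14 and -2.78, edgeR adjusted p = 0.00054 and 8.4e-05). CCR2, the receptor of CCL2 and CCL8 on monocytes, fell from 26.1 to 46.9 CPM to 15 to 19 CPM and 9.11 to 21.5 CPM (-1.12 and -1.39, edgeR adjusted p = 0.00203 and 0.000386). CCR10 rose from 1.42 to 2.33 CPM to 2.09 to 11.3 CPM and 2.71 to 10.6 CPM (1.64 and 1.78, edgeR adjusted p = 0.00185 and 0.000679). These 3 were called with each GS pig left out.

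At 12h in GS, CCR6 (-1.08) and CCR8 (-1.20), receptors of CCL20 and of T cell chemokines, also fell, and ACKR1 (1.04), the endothelial and red cell receptor that binds chemokines without signaling, rose. These 3 calls were lost in 4, 4 and 2 of the 5 fits that left out a pig. In PD, 12 receptors were tested. At 6h edgeR called 0, beside 0.142% of all genes, with 1 receptor and 1463 of 15545 genes at an unadjusted p under 0.05. At 12h it called 1 receptor, beside 5.98% of all genes. This was CCR4, at 7.65, 8.64, 3.44 and 3.93 CPM at 0h and 1.08, 1.52, 0.483 and 1.47 CPM at 12h, lower in all 4 pigs without overlap (-2.28, SE 0.52, edgeR adjusted p = 0.0314), and not called without pig 3, 4 or 5. CCR2 was not called in PD, but each of the 4 pigs was below its own 0h value at both times, as in GS. Its PD levels were 22.0 to 45.4 CPM at 0h, 12.6 to 22.9 CPM at 6h and 3.67 to 17.3 CPM at 12h. The lowest of these was pig 2 at 12h, a library that stood apart. CCR1, a receptor of CCL5, and CCR7, that of CCL19 and CCL21, were not called in any of the 4 comparisons. The T and natural killer cell markers summed to 234 to 333 CPM in GS at 0h and 124 to 235 CPM at 12h, and to 245 to 465 CPM and 125 to 204 CPM in PD, with 1 of 6 called at 12h in each group (CD2 in GS, CD3D in PD). Their part in the receptor changes was not tested.

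**Figure D4:**
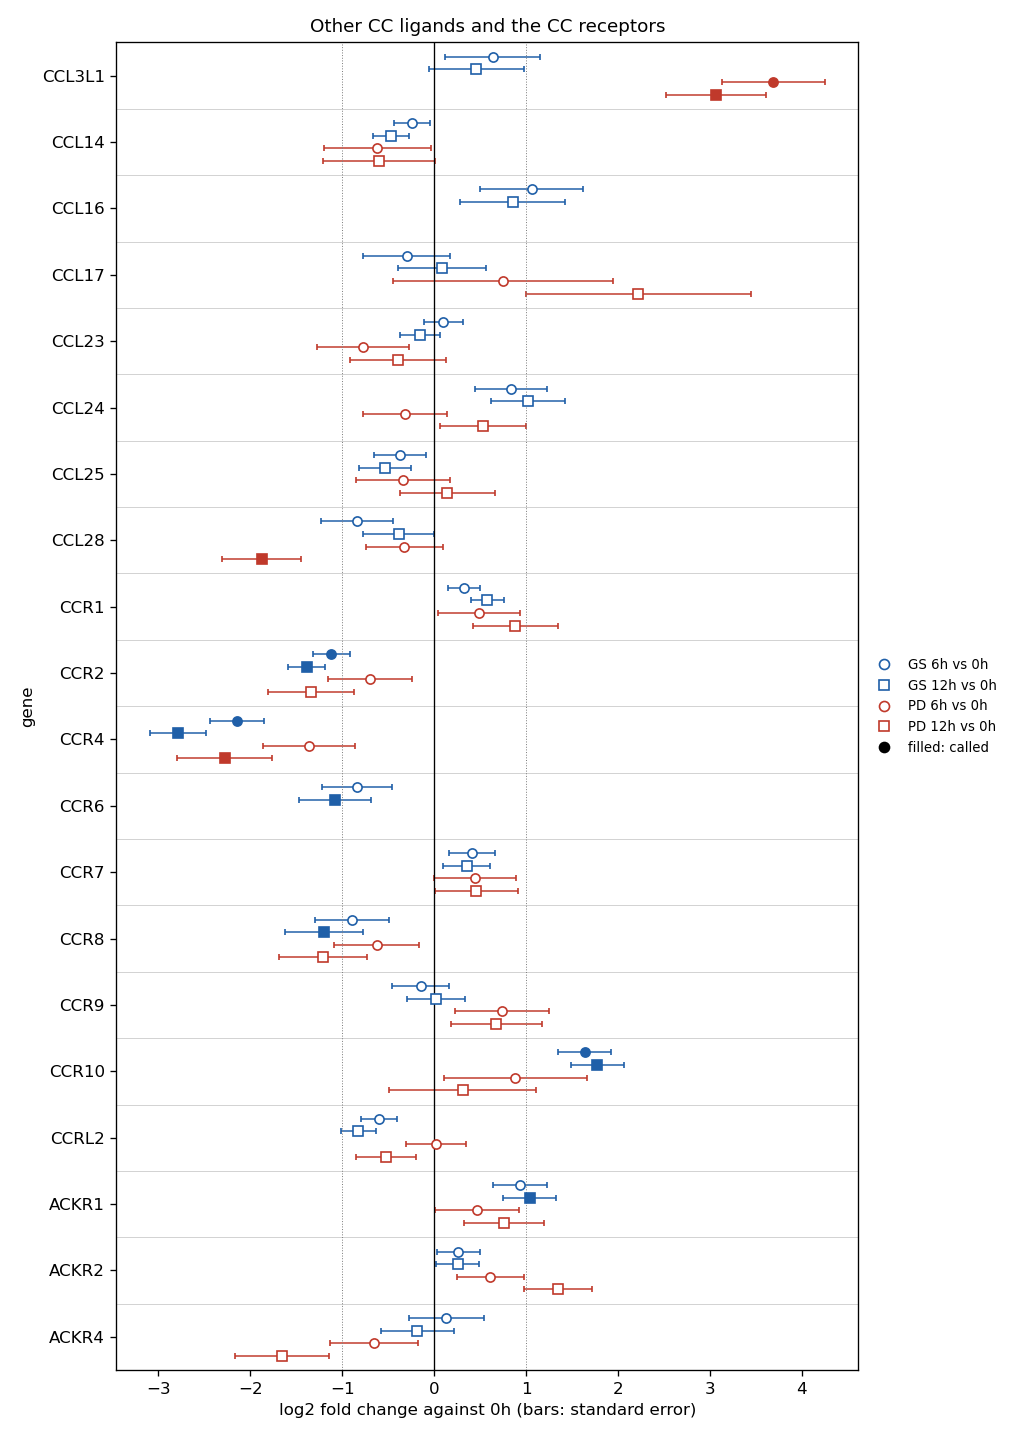
Log2 fold change against 0h of the other CC ligands and of CC receptors that were tested (symbols as for the members, filled for calls). CCL3L1 in PD stands farthest to the right, followed by CCL17 in PD at 12h (2.22, not called), and CCR4 is called to the left at 12h in both groups and CCR10 to the right in GS.

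Finally, the genes whose levels moved most like each member over the 27 libraries were listed by Pearson's r of log2 CPM after removal of each pig's mean, as a description, since libraries share pigs, depth and time. CCL4 was most like CCL3L1 (r = 0.917, and 0.828 in GS and 0.941 in PD), followed by DUSP2 (0.896) and SNORD16 (0.885). Since CCL3L1 lies within the deposited row of CCL4, shared reads cannot be told apart from shared movement in this r. CCL21 was most like DOCK6 (0.928), and over the 5 lymphatic markers its r was 0.821 with FLT4, 0.683 with RELN, 0.139 with PROX1, -0.06 with MMRN1 and -0.37 with LYVE1. The sign differed by group for PROX1 (0.586 in GS, -0.22 in PD) and MMRN1 (0.475 in GS, -0.26 in PD). Without the 2 libraries that stood apart, the r of CCL21 was 0.879 with FLT4, 0.768 with RELN, 0.314 with PROX1, 0.178 with MMRN1 and -0.28 with LYVE1. CCL5 was most like BIN1 (0.878), CCL19 most like TIMM50 (0.852), CCL8 most like ADORA2A (0.838), CCL26 most like NDUFAB1 (0.834) and CCL2 most like RGS16 (0.722). Of the 24 like genes, 3 for each of the 8 members, 0 were among the 24 found in the GS libraries alone and 3 among those found in the PD libraries alone. Without the 2 libraries that stood apart, 6 of the 24 were found again, among them CCL3L1 for CCL4 (0.924). Among the members, CCL5 and CCL19 had the highest r (0.729) and CCL22 and CCL26 the lowest (-0.595), but without those 2 libraries, which hold the extreme values of these genes, they were 0.486 and -0.03, and the highest r was then that of CCL4 and CCL8 (0.734, against 0.546 with all libraries). CCL2 and CCL8 had 0.563 with all libraries and 0.552 without the 2.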

How the data were processed

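The deposited table held whole-number counts per gene, made by the authors as paired-end reads from a strand-specific poly(A) kit, demultiplexed with bcl2fastq 2.2.18.12, trimmed with cutadapt 1.15, aligned with TopHat2 2.0.14 to Sscrofa11.1 (Ensembl gene models) and counted with featureCounts of Subread 1.6.0, per the submitters' notes. Counting options for strand and overlap were not given in the sources used here. PicoPure or Trizol with NucleoSpin extraction was listed for all samples alike, so extraction could not be used as a term.

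Counts were tested with edgeR 4.0.16 in R 4.3.3 (filterByExpr, TMM, robust quasi-likelihood, 1 fit per group over the 3 times with the pig as replicate block, Benjamini-Hochberg over all genes tested). Calls needed an adjusted p under 0.05 and, against 0h and for levels at 0h, a fold change of 2. PD was compared with GS by the interaction in all 27 libraries, by exact permutation of the log2 ratios of each pig to 0h (0.5 added to counts) and by levels at 0h. The pairing comes from the animal. Residuals of the same pig correlated at 0.513 on average in GS and 0.112 in PD, against -0.116 and -0.034 for different pigs. In PD the same-pig values (-0.265 to 0.462) largely overlapped those of different pigs (-0.449 to 0.388), so they show little of the pairing there. Scripts were tested on simulated data. DESeq2 1.42.0, other filters and scalings, thinning and leaving out each pig were alternatives. The members, lists, rule for named genes (all members, other CC ligands and receptors where called, and the 3 genes most like each member) and tests were chosen with earlier results of these data known. Replicates are separate pigs, and no pair of libraries agreed within sampling noise (lowest chi-square per degree of freedom 36.4). Promoter windows came from RefSeq, some windows and genes are not reported here, and figures were drawn with matplotlib. Counting intervals were not computed, so the spread between pigs was not set against them.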

Additional observations from a re-analysis of the deposited data

Results flagged for a closer look

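Of 90 sets of per-pig values (each gene, group and time with 4 or 5 pigs), 3 held a pig far from the rest of its set, 3.33%, where chance gives about 5%. For CCL2, GS pig 9 had a 12h to 0h log2 ratio of -2.02, with the nearest pig at -0.01, a gap of 0.72 of the whole range. For CCL4 at 6h, the ratio of GS pig 17 was -1.74 with the nearest at 0.43, a gap of 0.716 of the range. For CCL26 at 12h, the ratio of GS pig 9 was 3.73 with the nearest at 1.18, a gap of 0.72 of the range, and the GS call of that gene was lost without this pig, as it was without pig 17, 44 or 55.

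The change from 0h differed between PD and GS for CCL4 at 6h by 3.60 on the log2 scale (exact permutation p = 0.00794) and at 12h by 3.09 (exact permutation p = 0.0159), and for CCL8 at 6h by 2.11 (exact permutation p = 0.0317). None of the 3 passed adjustment over all genes. All 4 PD pigs had CCL4 ratios above every GS pig at both times, and for CCL8 3 of the 4 PD pigs were higher at 6h than at 0h, against 1 of the 5 GS pigs.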

How the results depend on the processing

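The 27 gene results that were called were recomputed under 12 to 14 settings each, which gave 341 values, of which 261 kept the call, 80 lost it and 0 turned the direction. For 6 ratio differences with an unadjusted exact p under 0.05, 60 of 81 values stayed under it and 0 turned the direction. Of 796 values of members that were not called, 49 changed sign in an alternative, none of them called, and 10 were called with the direction unchanged. With no replicate block, 0 members were called in GS at 6h and 0 at 12h, beside 6.04% and 10.2% of all genes, while the CCL4 calls in PD did not change with this choice of pairing. The counts of members called in GS were 0 at 6h and 1 at 12h with no filter on low counts (beside 7.18% and 10.6% of all genes) or with only the 2 times compared (9.76% and 13.9%), and 0 at both times with all 27 libraries in 1 fit (6.82% and 11.4%). In PD at 12h, 2 members were called by DESeq2 and with all 27 libraries in 1 fit (CCL21 beside CCL4), where 16.5% and 18.5% of all genes were called, and 0 with only the 2 times compared (CCL4 at 3.37, edgeR adjusted p = 0.106). Without the 2 libraries that stood apart, an alternative chosen after seeing the data, 2 members were called in PD at 6h, 2 at 12h and 1 between 6h and 12h, beside 2.63%, 21.1% and 4.34% of all genes. For the difference of the changes at 6h, DESeq2 called 1 member, beside 0.0391% of all genes. Thinning to the lowest total left 1 with an exact p under 0.05, a count not set against a share of all genes here. Levels in place of ratios gave 4 at 6h and 5 at 12h, beside 33% and 31.8% of all genes. Leaving out 1 pig gave 0 to 2 members called in GS at 6h and 0 to 2 at 12h, 0 to 1 in PD at 6h and 0 to 2 at 12h, 2 to 5 for the level at 0h, and 1 to 4 and 0 to 2 for the ratios at 6h and 12h. In the same fits, 7.2% to 11.4% and 11.6% to 18.8% of all genes were called in GS at 6h and 12h, 0% to 0.624% and 0% to 24.4% in PD and 26.8% to 29.5% for the level at 0h, and for the ratios 3.66% to 16.1% and 2.43% to 20.1% had an exact p under 0.05. The causes of these shifts were not tested. With 4 PD pigs, 3 remain when 1 is left out. The lowest library counts were 0 for CCL22 (PD at 0h) and 8 for CCL26 (GS at 0h).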
